A study of Mus musculus with 4 samples.

Results

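Chemokine receptors and the other genes that steer lymphocytes between blood, lymph and tissue were examined in cultured group 2 innate lymphoid cells (ILC2s) given the secondary bile acid deoxycholic acid (DCA). The 9 genes were taken from the deposited count table by their symbols, Ccr2, Ccr4, Ccr7, Ccr8, Ccr9, Cxcr4, Cxcr6, S1pr1 and Klf2, out of 27179 genes in all. ILC2s were sorted from the large intestine of C57BL/6 WT mice as CD45.2+ lineage-negative CD127+ KLRG1+ cells. Both groups shared an expansion of 5 days in cytokines at 10 ng/mL each, of which IL-33 and IL-25 activate ILC2s and IL-7 and IL-2 sustain them. One group of 2 libraries, titled Ctrl and called vehicle here, was the control, and the other group of 2 libraries received 100 μM DCA. The RNA-Seq methods of the study give culture with or without DCA and name no vehicle. The methods of the study give 24 hours of treatment and the deposited design text gives 16 hours. The labels do not say whether replicates came from separate mice or cultures, so p-values measure only the spread between these libraries. Sorted and expanded cells are a model of ILC2s held in cytokines, away from the vessels and chemokine gradients of the intestine.

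Chemokine receptors are G protein–coupled receptors that make a leukocyte move up a gradient of its ligand. Lymphocytes leave tissue through sphingosine-1-phosphate (S1P), which is high in blood and lymph and is sensed by S1PR1, and the transcription factor KLF2 switches on S1pr1. CCR7 guides cells into lymphatic vessels and lymph nodes, and CXCR4 holds cells near sources of CXCL12. CCR9 brings lymphocytes to the small intestine, whereas CCR4 and CCR8 mark many type 2 lymphocytes, CCR2 responds to monocyte-attracting chemokines and CXCR6 responds to CXCL16 in barrier tissues. ILC2s are largely resident in the tissue, and part of the population can enter the circulation after activation by IL-25.

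Gene symbols could be matched to a RefSeq promoter window on GRCm38.p6, a stretch around the transcription start, for 7 of the 9 genes, all but Ccr7 and S1pr1. The windows of 3 genes are shown because they had the highest level, the lowest log2 fold change among tested genes and the lowest vehicle level of the 9. The Cxcr6 window lies at chr9:123806227-123806526 on the plus strand, the Ccr2 window at chr9:124101933-124102232 on the plus strand, and the Klf2 window at chr8:72318812-72319111 on the plus strand. The Ccr2 window lies inside the annotated gene, which begins at 124101918, so it surrounds a start within the gene and not the outermost one. The Ccr4 window also lies inside its gene. Capitals mark a RUNX core (TGTGGT or its complement) in Cxcr6, a GATA core (AGATAA or its complement) in Ccr2, and a MEF2 consensus site in Klf2.
Cxcr6: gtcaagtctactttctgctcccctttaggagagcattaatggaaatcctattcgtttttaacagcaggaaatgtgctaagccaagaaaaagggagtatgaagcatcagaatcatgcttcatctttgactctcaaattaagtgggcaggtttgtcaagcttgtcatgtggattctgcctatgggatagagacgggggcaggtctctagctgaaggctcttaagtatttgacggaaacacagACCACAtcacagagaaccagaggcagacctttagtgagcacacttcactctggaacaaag
Ccr2: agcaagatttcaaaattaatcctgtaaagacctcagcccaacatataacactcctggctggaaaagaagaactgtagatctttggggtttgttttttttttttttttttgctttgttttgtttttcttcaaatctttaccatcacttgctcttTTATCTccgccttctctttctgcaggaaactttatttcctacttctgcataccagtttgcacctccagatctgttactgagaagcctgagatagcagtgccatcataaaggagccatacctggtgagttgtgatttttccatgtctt
Klf2: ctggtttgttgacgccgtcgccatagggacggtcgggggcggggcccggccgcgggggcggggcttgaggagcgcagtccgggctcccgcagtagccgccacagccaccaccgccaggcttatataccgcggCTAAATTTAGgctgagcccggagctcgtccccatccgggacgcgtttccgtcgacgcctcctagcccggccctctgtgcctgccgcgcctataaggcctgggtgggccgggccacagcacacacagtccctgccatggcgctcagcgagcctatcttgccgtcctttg
On both strands, the RUNX core was found in 16.8% of all 32851 promoter windows, the GATA core in 11.2% and the MEF2 site (its consensus of A or T at the central bases) in 0.557%, or 183 windows. The motifs do not overlap each other, they were chosen after the windows had been read, and a match is a description of letters and not of binding. Klf2 and Cxcr4, both near 0 counts in these cells, had the windows richest in G and C (69.3% and 59.3%) and in CG pairs (32 and 20). Cxcr6 and Ccr2 had 44.3% and 38.0% with 3 CG pairs and 1 CG pair, against a median of 52.7% G and C over all windows. Ccr9, also near 0 counts, had 51.3% with 4 CG pairs. Ccr8, an abundant gene, had 54.0% with 2 CG pairs, and Ccr4 had 46.3% with 3. A link between these letters and the level of a gene was not tested.

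The libraries held 26564059 to 35838342 counts, except DCA replicate 2, which held 244165712. Levels are CPM, counts scaled to the size of the library with TMM factors. Treatments were compared in edgeR (quasi-likelihood test) over 11184 genes whose mean CPM was 1 or more, and 6 of the 9 genes were among these. A count of 0 allows up to 3 counts, or 0.0125 CPM in DCA replicate 2 and 0.0819 to 0.114 CPM in the other libraries, for counting error only. The ILC2 markers summed to 15956 and 14635 CPM under vehicle against 17025 and 19699 under DCA, most of it from Il5 (8846 and 7707 CPM, against 9952 and 12358). Klrg1, used in the sort, was at 687 and 677 CPM under vehicle against 463 and 357 under DCA (edgeR adjusted p = 0.998, unadjusted 0.0156, and 0.0444 after adjustment in DESeq2). Il1rl1, the IL-33 receptor, was at 831 and 875 CPM under vehicle against 598 and 534 under DCA (edgeR adjusted p = 0.998, unadjusted 0.0235), so both were lower in the DCA libraries while the sum was higher. For Gata3, Rora, Il17rb and Id2 the vehicle and DCA libraries overlapped. Over all genes tested, 33.4% stood apart without overlap. Il7r and Il2ra were higher in the DCA libraries. Il7r, which encodes the CD127 of the sort, was at 373 and 350 CPM under vehicle against 582 and 462 under DCA (edgeR unadjusted p = 0.0515). Il2ra was at 1072 and 1228 CPM under vehicle against 1613 and 1588 under DCA (edgeR unadjusted p = 0.0446). Both had an adjusted p of 0.998 in edgeR. The part of these marker differences in the results below was not tested. Ptgdr2 was at 0 counts in every library and Thy1 was near 0 in all but DCA replicate 1. In bulk RNA, fewer cells that express a gene and less RNA per cell cannot be told apart.

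Cxcr6 was by far the most abundant of the 9 genes, followed by Ccr8 and Ccr2, and then by Ccr7 and Ccr4. S1pr1 differed widely between libraries of the same treatment, and Ccr9, Cxcr4 and Klf2 were at or near 0. The clearest differences between treatments were a lower level of Ccr2 and a higher level of Ccr7 with DCA, each more than 2-fold in the fitted values. In edgeR, 0 of the 6 passed an adjusted p of 0.05, and so did 0 of all genes tested (0.0% in each direction). At an unadjusted p under 0.05 there was 1 gene of the 6, Ccr2, which was lower. At that level stood 4.27% of all genes tested, 1.7% lower and 2.57% higher, a count of 477 genes that became 1505, 1235, 102 and 259 without vehicle replicate 1, vehicle replicate 2, DCA replicate 1 and DCA replicate 2. For 2 of the 6, as for 33.4% of all genes tested, the vehicle and DCA libraries stood apart without overlap. With DESeq2, 1 of the 6 genes (Ccr2) passed an adjusted p of 0.05, where 0.392% of genes with an adjusted p were lower and 0.775% higher.

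**Figure D1:**
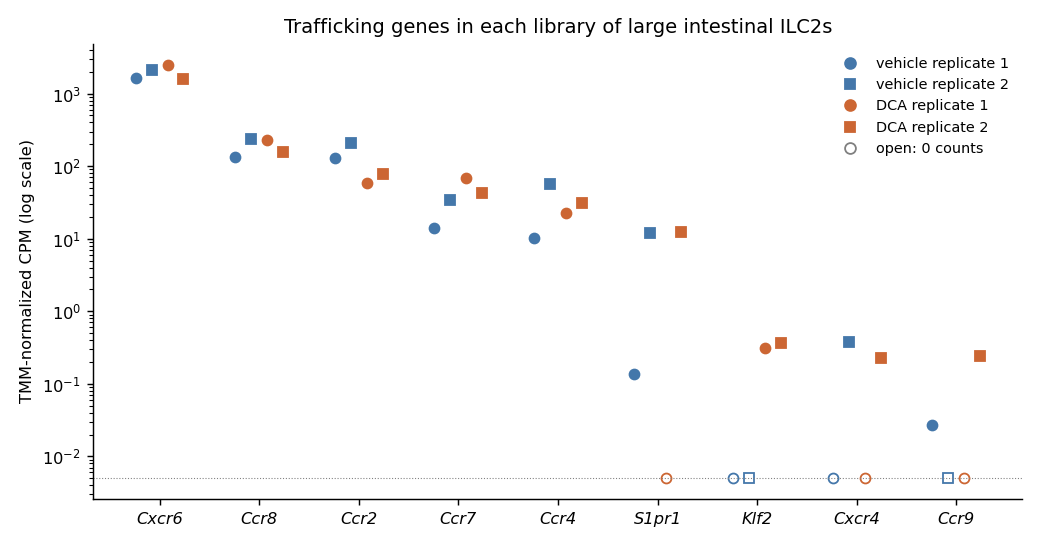
Level of each of the 9 genes in each library, in TMM-normalized CPM on a log scale, with vehicle in blue, DCA in orange, and libraries at 0 counts as open symbols on the dotted line. Cxcr6 lies at or above 1572 CPM in every library, both DCA points of Ccr2 lie below both vehicle points, and S1pr1 is near 12 CPM in the replicates numbered 2 and at or near 0 in those numbered 1.

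Cxcr6 (Entrez gene 80901, chromosome 9, 123806477 to 123811754 on GRCm38) encodes the receptor for CXCL16. It was at 1656 and 2084 CPM in vehicle replicates 1 and 2 and at 2502 and 1572 CPM in DCA replicates 1 and 2. The DCA libraries lay on both sides of the vehicle libraries. The means were 1870 ± 303 CPM (SD, n = 2) with vehicle and 2037 ± 658 CPM (SD, n = 2) with DCA, for a log2 difference of 0.12 (standard error 0.37, taken from log2(CPM + 1) of the libraries, edgeR adjusted p = 0.998, unadjusted 0.669). The sign turned to -0.055 without vehicle replicate 1 and to -0.25 without DCA replicate 1. Cxcr6 sits within the span of Fyco1, which is on the opposite strand and shares 0 exonic bases with it in GENCODE M21. Fyco1 itself was at 49.1 and 56.1 CPM under vehicle against 44.1 and 27.6 under DCA, far below Cxcr6.

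Ccr8 (Entrez gene 12776, chromosome 9, 120092133 to 120094906) encodes a receptor for CCL1 and, in mice, CCL8. Its level was 133 and 235 CPM under vehicle against 228 and 156 under DCA. Both DCA libraries lay between the vehicle libraries. The log2 fold change was 0.061 (standard error 0.49), with edgeR adjusted p = 0.998, unadjusted 0.867. The value was -0.31 without vehicle replicate 1 and 0.53 without vehicle replicate 2, and leaving out a DCA library gave -0.25 (replicate 1) or 0.31 (replicate 2).

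Ccr4 (Entrez gene 12773, chromosome 9, 114490316 to 114505476) encodes the receptor for CCL17 and CCL22, the other receptor known from type 2 lymphocytes. It was at 10.3 and 56.7 CPM under vehicle against 22.8 and 31.3 under DCA. The vehicle libraries enclosed the DCA libraries, and the vehicle SD (32.8 CPM, n = 2) was close to the vehicle mean (33.5 CPM). Its fitted log2 fold change of -0.31 had edgeR adjusted p = 0.998, unadjusted 0.702. In log2(CPM + 1) the difference was 0.12 (standard error 1.19), of the opposite sign. Vehicle replicate 1 against vehicle replicate 2 decided the sign, since the value was -1.09 without the first and 1.39 without the second.

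Ccr2 (Entrez gene 12772, chromosome 9, 124101918 to 124109140) encodes the receptor for CCL2, CCL7 and CCL12. It was at 130 and 211 CPM under vehicle against 58.3 and 78.3 under DCA. The DCA libraries both lay below the vehicle libraries, as for 14.5% of all genes tested. The mean was 171 ± 57.4 CPM (SD, n = 2) with vehicle and 68.3 ± 14.2 CPM (SD, n = 2) with DCA, for a log2 difference of -1.32 (standard error 0.41), or 2.50-fold lower. The unadjusted p was 0.00723 and the adjusted p 0.998 in edgeR. Without a filter on low counts the adjusted p was 0.0217 in edgeR, where 0.0678% of genes were lower and called, and 0.0215 with DESeq2. The two-sided exact permutation p was 0.333, the smallest that 2 libraries against 2 allow. The no-filter call was lost without vehicle replicate 2, DCA replicate 1 or DCA replicate 2 (adjusted p of 0.175, 0.9999 and 0.273), was lost with the replicate block (adjusted p of 0.246) and held without vehicle replicate 1. Over the fits that left out a library, with the filter, the log2 fold change lay between -1.65 and -0.93.

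Part of the longest Ccr2 transcript in GENCODE is not unique among chemokine receptor transcripts at the read length of 150 bases. How the authors counted such reads is not given in the sources used here, so the Ccr2 values are uncertain to that extent. For the other 6 receptors among the 9 genes, the longest stretch shared with any of the 24 chemokine receptors was 16 to 28 bases.
Ccr2 is also abundant in monocytes. The 7 monocyte and macrophage markers summed to 0.382 CPM in vehicle replicate 1 and to less in the other libraries, and Csf1r, Cd14 and Fcgr1 were at 0 counts in every library.

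Ccr7 (Entrez gene 12775, chromosome 11, 99144199 to 99155077) encodes the receptor for CCL19 and CCL21. It was at 13.9 and 33.9 CPM under vehicle against 68.8 and 42.9 under DCA. The vehicle libraries both lay below the DCA libraries, as for 18.8% of all genes tested. The mean was 23.9 ± 14.2 CPM (SD, n = 2) with vehicle and 55.8 ± 18.3 CPM (SD, n = 2) with DCA. The log2 fold change was 1.22 (standard error 0.70), or 2.34-fold higher, with edgeR adjusted p = 0.998, unadjusted 0.0615. The exact permutation p was again 0.333. With DESeq2 the adjusted p was 0.737 and the unadjusted p 0.0462. The size depended on single libraries, with a log2 fold change of 0.70 without vehicle replicate 1 and 2.01 without vehicle replicate 2. In that last setting, and with no filter, the adjusted p for Ccr7 was 0.00776, while it was 0.598 in the no-filter fit of all libraries.
Mature dendritic cells also carry CCR7. Among the 7 dendritic cell markers, Itgax, Clec9a and Siglech were at 0 counts in every library, and 6 of the 7 were under 1 CPM throughout. The list summed to 46.4 and 23.9 CPM under vehicle against 28.7 and 24.9 under DCA, nearly all of it from Xcr1.

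Because Ccr2 was lower and Ccr7 higher, their balance within a library was also compared. This pair was chosen after the values had been seen, so the ratio is a description. There were 0.107 and 0.161 Ccr7 reads per Ccr2 read in the vehicle libraries and 1.18 and 0.547 in the DCA libraries. The ratio does not depend on how libraries are scaled, and in DCA replicate 1 it exceeded 1.

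**Figure D2:**
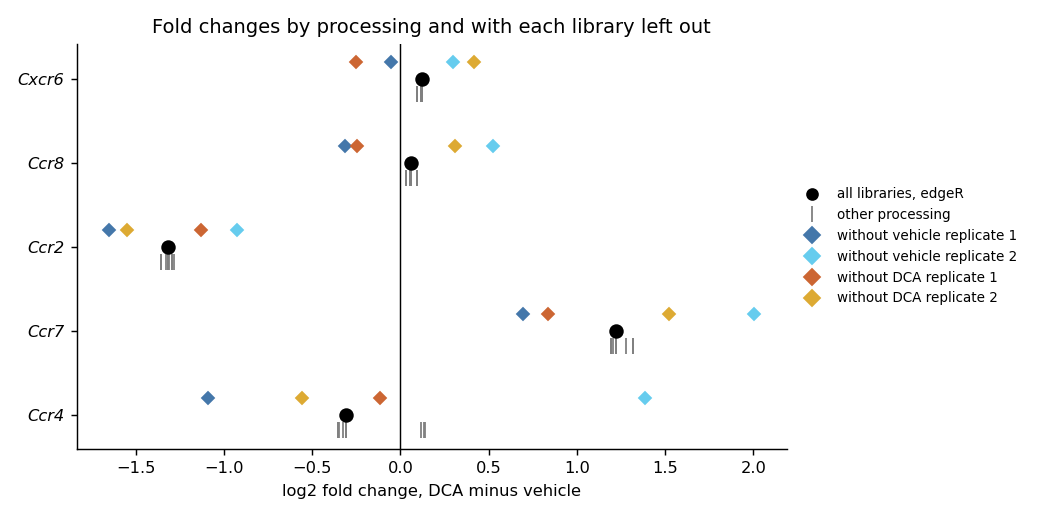
Log2 fold change (DCA minus vehicle) of 5 tested genes with all libraries in edgeR (black), under other processing (grey ticks), and with each library left out (diamonds). Ccr2 stays below 0 and Ccr7 above 0 in every fit shown, whereas Cxcr6, Ccr8 and Ccr4 have fits on both sides of 0.

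S1pr1 (Entrez gene 13609, chromosome 3, 115710433 to 115715055) encodes the S1P receptor that lets lymphocytes leave tissue. It had 5 and 315 counts in the vehicle libraries and 0 and 2954 counts in the DCA libraries, which is 0.136 and 12.0 CPM under vehicle against 0 and 12.3 under DCA. In each treatment the replicate numbered 2 expressed S1pr1 and the replicate numbered 1 had 5 counts or none. The fitted log2 fold change was 0.025, with edgeR adjusted p = 0.999, unadjusted 0.993. In log2(CPM + 1) the difference was -0.076 (standard error 2.56), and the standard error far exceeded the difference. After random thinning to 32095090 counts in all, DCA replicate 2 still had 383 S1pr1 counts, where vehicle replicate 1 had 5. Among the 1302 tested genes within 1.5 times of the mean level of S1pr1 (6.02 CPM), 16.4% had a library at or under 3 counts and 2.61% had at least 2 libraries under 0.2 CPM.

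Klf2 (Entrez gene 16598, chromosome 8, 72319062 to 72321654), the factor that activates S1pr1, was at 0 counts in either vehicle library, against 10 and 89 counts under DCA, or 0.309 and 0.371 CPM. Set against 3 counts per vehicle library, the DCA mean was 3.47-fold higher. This value allows for counting error in the vehicle libraries only, so it is not a lower bound on the fold. The error of the DCA counts and the spread between libraries are not in it. After thinning, DCA replicate 2 had 14 Klf2 counts. Klf2 was under the filter, and without a filter its unadjusted p was 0.207 and its adjusted p 0.954 in edgeR. With edgeR's own filter, which kept Klf2, the unadjusted p was 0.0624 and the adjusted p 0.998. S1pr1 was at 0 counts in DCA replicate 1, where Klf2 was detected, and at 315 counts in vehicle replicate 2, where Klf2 was not.

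Cxcr4 (Entrez gene 12767, chromosome 1, 128588199 to 128592299) had 0 and 10 counts under vehicle against 0 and 54 under DCA. It was seen in the replicate numbered 2 of each treatment, at 0.381 CPM with vehicle and 0.225 CPM with DCA. Ccr9 (Entrez gene 12769, chromosome 9, 123767211 to 123783457) had 1 and 0 counts under vehicle against 0 and 58 under DCA, so it was above 3 counts in DCA replicate 2 alone, at 0.242 CPM. After thinning of that library, 10 Ccr9 counts and 6 Cxcr4 counts were left. Without a filter, the unadjusted p was 0.872 for Cxcr4 and 0.547 for Ccr9, with adjusted p of 0.989 and 0.961 in edgeR. Both genes had too few counts for a fold to be read. Part of Ccr9 overlaps the exons of a transcript on the opposite strand (1932 shared bases), and without strand in the counting such reads cannot be told apart.

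Levels of different genes were compared per kilobase of exon, with lengths from GENCODE M21. With vehicle, the order was Cxcr6 (969 ± 157 CPM per kb, SD, n = 2), Ccr8 (157 ± 61.1), Ccr2 (25.2 ± 8.49), Ccr7 (12.1 ± 7.16), Ccr4 (10.8 ± 10.6), S1pr1 (1.99 ± 2.76), Cxcr4 (0.105 ± 0.149), Ccr9 (0.00133 ± 0.00188) and Klf2 (0). Ranges of neighbors in this order did not overlap from Cxcr6 down to Ccr7, and all pairs of neighbors from Ccr7 downward overlapped. With DCA, Cxcr6 (1055 ± 341 CPM per kb) and Ccr8 (163 ± 43.6) kept the top places, while Ccr7 (28.2 ± 9.25) stood above Ccr2 (10.1 ± 2.10) with no overlap between them. Ccr2 overlapped Ccr4 (8.74 ± 1.93). S1pr1 (2.02 ± 2.86) followed, and Klf2 (0.184 ± 0.0236), Cxcr4 (0.0622 ± 0.0880) and Ccr9 (0.0118 ± 0.0167) came last.

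**Figure D3:**
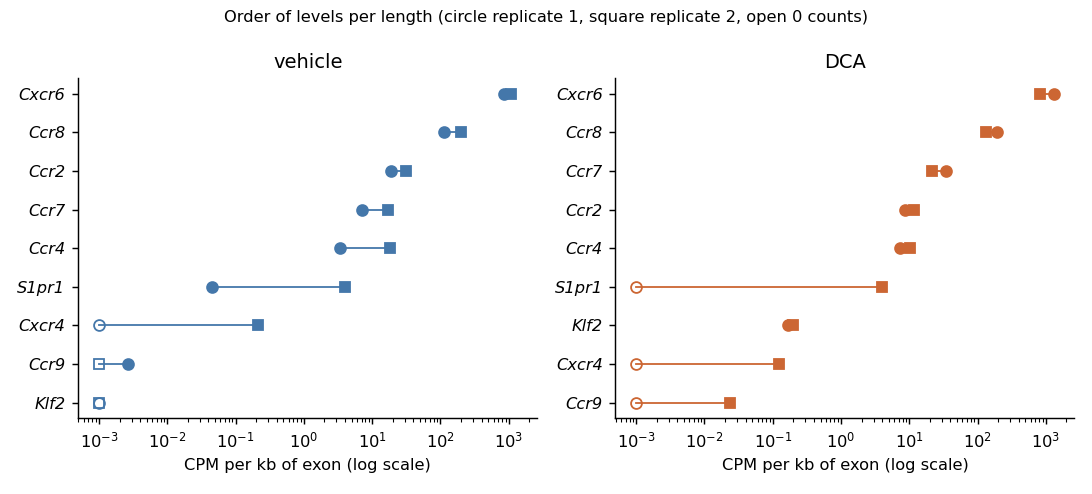
Level per kilobase of exon (CPM per kb, log scale) of the 9 genes in each treatment, ordered by mean, with a line joining the 2 libraries and open symbols for 0 counts. Ccr2 stands above Ccr7 with vehicle and below it with DCA, and S1pr1 spans the widest range in either treatment among the tested genes.

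The 24 chemokine receptor genes, the 7 above and 17 others, were then considered together. Counts were found for 17 of them in at least 1 library, and 8 had a mean of at least 10 CPM. Their summed level was 2377 and 3075 CPM under vehicle against 3349 and 2204 under DCA. Cxcr6 alone supplied 69.7% and 67.8% of the summed receptor CPM with vehicle and 74.7% and 71.3% with DCA. Ccr2 supplied 5.47% and 6.87% with vehicle and 1.74% and 3.55% with DCA, and Ccr7 supplied 0.584% and 1.10% with vehicle and 2.05% and 1.95% with DCA. Ccr8 supplied 5.60% to 7.63% in all 4 libraries. Of the other receptors, Ccr1, which responds to CCL3 and CCL5, was at 335 and 338 CPM under vehicle against 383 and 265 under DCA. Xcr1, best known from cross-presenting dendritic cells, was at 46.3 and 23.9 CPM under vehicle against 28.7 and 24.9 under DCA. Of the 17 other receptors, 7 had 0 counts in every library, among them Cxcr3 and Ccr10, and 4 were tested, 0 of which reached an unadjusted p under 0.05.

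Ccr9, Cxcr6 and Ccr2 belong to a cluster of receptor genes on chromosome 9 and span 123767211 to 124109140, or 342 kb, from the start of Ccr9 to the end of Ccr2. In their order along the chromosome the protein-coding genes in the table were Ccr9, Fyco1, Cxcr6, Xcr1, Ccr1, Ccr1l1, Ccr3 and Ccr2. Levels differed by orders of magnitude along the cluster, with Ccr9 at or under 0.242 CPM in each library and Cxcr6, past Fyco1, at 1572 CPM or more. Ccr3, a receptor for eotaxins, was at 1.26 and 3.20 CPM under vehicle against 2.32 and 5.72 under DCA, between Ccr1 and Ccr2. Within this span, the DCA libraries both lay below the vehicle libraries for Ccr2 and Fyco1, as for 14.5% of all genes tested. The treatments overlapped for the other genes named here.

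**Figure D4:**
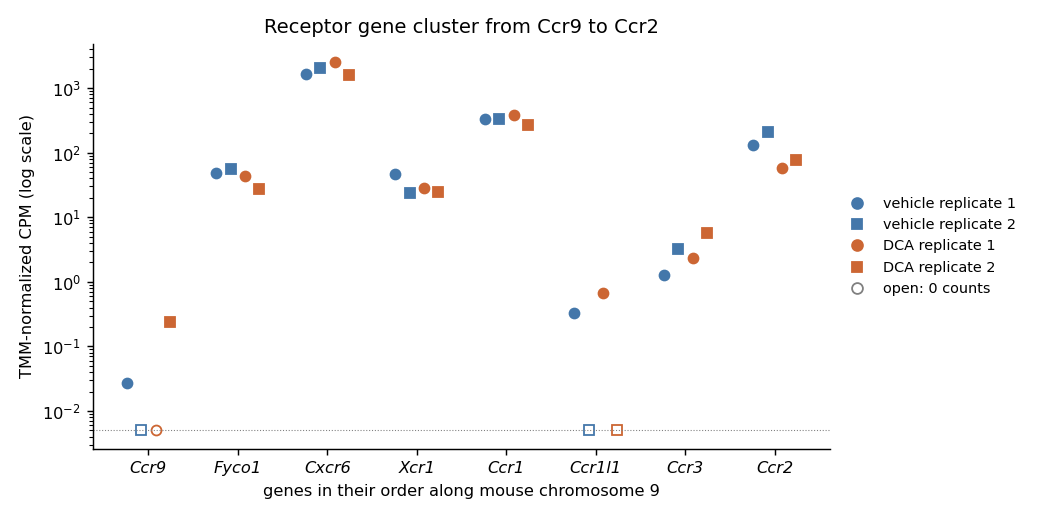
Level (TMM-normalized CPM, log scale) of the protein-coding genes from Ccr9 to Ccr2 in their order along chromosome 9, by library, with 0 counts as open symbols. Cxcr6, Ccr1 and Ccr2 are high next to Ccr9, Ccr1l1 and Ccr3, which are low in both treatments.

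Among the ligands of these receptors, Ccl25 alone passed the filter. Of 12 ligand genes, 7 had 0 counts in every library and 1 was tested, Ccl25, the ligand of CCR9, at 3.93 and 8.38 CPM under vehicle against 4.42 and 3.06 under DCA (log2 fold change -0.72, edgeR adjusted p = 0.998, unadjusted 0.552). Ccl1, a ligand of CCR8, was at 0 and 0.991 CPM under vehicle against 0.247 and 0 under DCA, and Cxcl16, the ligand of CXCR6, was at 0.600 CPM in vehicle replicate 1 and at 0 counts in the other libraries.

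In the S1P pathway, 0 of 7 tested genes of 14 had an unadjusted p under 0.05, and the median log2 fold change was 0.058, beside 0.012 over all genes tested. The median had no stable sign, at -0.76 without vehicle replicate 2 and 0.30 without vehicle replicate 1. The most abundant were Sgpl1, the lyase that degrades S1P, and the receptors S1pr4 and S1pr2. Sgpl1 was at 152 and 80.5 CPM under vehicle against 99.0 and 51.7 under DCA. S1pr4 was at 24.5 and 16.3 CPM under vehicle against 22.8 and 19.7 under DCA, in each library above S1pr1. S1pr2, a receptor that restrains migration, was at 36.0 and 23.3 CPM under vehicle against 4.76 and 17.3 under DCA, for a log2 difference of -1.43 (edgeR adjusted p = 0.998, unadjusted 0.0968, or 0.0362 without a filter). Both of its DCA libraries were below both vehicle libraries, as for 14.5% of all genes tested.

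Among the other KLF factors and the FOXO factors, which include FOXO1, an activator of Klf2 in T cells, 14 of 20 genes were tested and 0 had an unadjusted p under 0.05 (median log2 fold change -0.078, which turned positive with limma, with the replicate block, under some filters and without vehicle replicate 1 or DCA replicate 2). Klf6 was at 177 and 262 CPM under vehicle against 156 and 204 under DCA, so a KLF gene far above Klf2 was present in all libraries. Foxo1 was at 64.3 and 34.5 CPM under vehicle against 38.0 and 42.8 under DCA. Klf5 was at 15.0 and 28.5 CPM under vehicle against 32.5 and 32.4 under DCA.

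Most genes that carry the signal from these receptors had counts in every library, and Gna12, Grk5 and Rgs16 were at 0 counts in 2 or 3 libraries. Of 32 genes of G proteins, small GTPases, kinases, arrestins and RGS proteins, 29 were tested, with 17 log2 fold changes above 0 and 12 below and a median of 0.048. Over all genes tested, 5707 were above 0 and 5477 below, with a median of 0.012. Rgs1, which dampens chemokine receptor signals, was at 2973 and 2222 CPM under vehicle against 2085 and 2078 under DCA. The GTPases Cdc42 and Rac2 were at 1232 to 1511 CPM and at 1169 to 1421 CPM. Dock2, the exchange factor that activates Rac in migrating lymphocytes, had the only unadjusted p under 0.05 in the list, where 0 genes had one without DCA replicate 1 or DCA replicate 2 and 7 without vehicle replicate 2. It was at 289 and 165 CPM under vehicle against 130 and 113 under DCA, for a log2 difference of -0.90 (standard error 0.41, edgeR adjusted p = 0.998, unadjusted 0.0300). The DCA libraries both lay below the vehicle libraries, as for 5 of the 29 genes and 14.5% of all genes tested. At an unadjusted p under 0.05 in edgeR, 1.7% of all genes tested were lower and 2.57% higher.

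Of 12 genes of tissue entry, retention and adhesion, 11 were tested and 0 passed an adjusted p of 0.05, while 1 had an unadjusted p under 0.05 and was higher and 2 were lower, where 2.57% of all genes tested were higher and 1.7% lower at that level. The 3 became 1 without DCA replicate 1. Gpr183, an oxysterol receptor that positions lymphocytes in lymphoid tissue, averaged 30.8 ± 8.21 CPM under vehicle against 71.9 ± 26.5 under DCA (SD, n = 2; log2 fold change 1.22, edgeR adjusted p = 0.998, unadjusted 0.0242). Cd69, whose product binds S1PR1 and removes it from the surface, was at 612 and 393 CPM under vehicle against 269 and 302 under DCA (log2 fold change -0.82, edgeR adjusted p = 0.998, unadjusted 0.0237). Itga4, the integrin chain that pairs with β7 for entry into the intestine, was at 13.8 and 39.3 CPM under vehicle against 1.64 and 1.81 under DCA, for a log2 difference of -3.94 (edgeR adjusted p = 0.998, unadjusted 0.00240), and its adjusted p was 0.000471 with DESeq2 and 0.0222 without a filter. The most abundant genes of the list beside Cd69 were Itgb7, at 967 and 455 CPM under vehicle against 728 and 406 under DCA, and Selplg, which encodes a selectin ligand, at 399 and 379 CPM under vehicle against 522 and 438 under DCA.

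**Figure D5:**
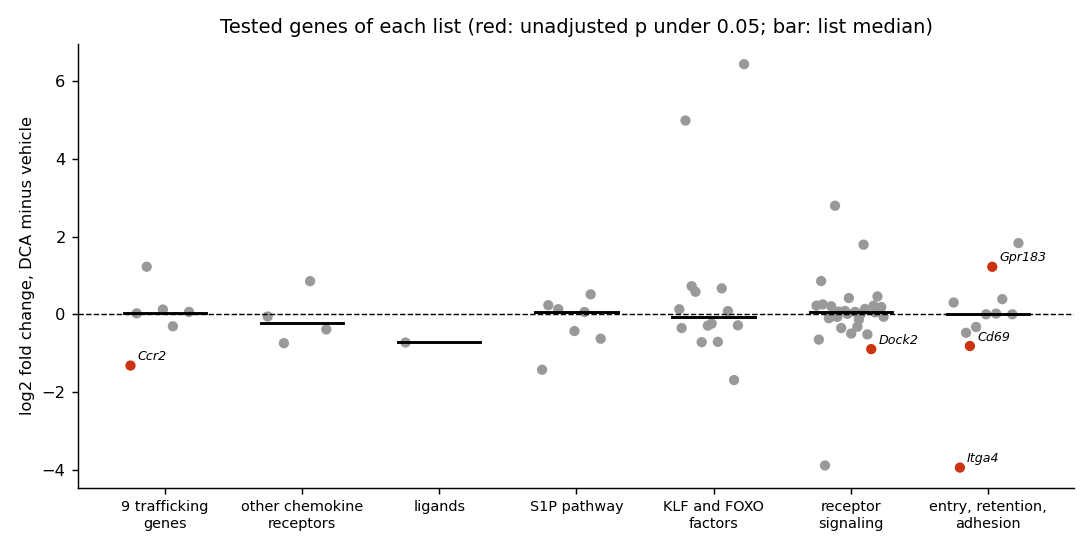
Log2 fold change (DCA minus vehicle) of each tested gene by list, with list medians as bars, the median of all genes tested as a dashed line, and genes with an unadjusted p under 0.05 in red. The medians are -0.22 for the other chemokine receptors and -0.72 for the ligands, where 1 gene was tested, and within 0.1 of 0 for the remaining lists. Medians of the 6 lists beside the 9 genes shifted when a library was left out, and Ccr2, Dock2, Cd69, Itga4 and Gpr183 are the genes in red.

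The genes whose profile over the 4 libraries was nearest to each receptor were sought among 7903 genes whose mean reached 10 CPM, by the Euclidean distance of log2(CPM + 1) after subtraction of the gene's mean. Nearest to Ccr2 were Raver1 (distance 0.214) and Kiz (0.250), and nearest to Ccr7 were Rabgef1 (0.121) and Exoc6 (0.192). Rabgef1 was at 5.18 and 13.2 CPM under vehicle against 26.3 and 18.3 under DCA. The profiles nearest to Ccr8 were those of Rrp36 (0.0744) and Dnm1l (0.0860), those nearest to Cxcr6 were Tuba1a (0.0458) and Prmt2 (0.0576), and that nearest to Ccr4 was Zc3h12c (0.175). With 4 libraries many genes share a profile, so likeness is a description.

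Markers of other cell types were summed in each library. T cell markers summed to 27.6 and 26.6 CPM under vehicle against 22.2 and 19.2 under DCA, with Cd4 and Cd8a at 0 counts in every library. B cell markers summed to 55.0 and 47.1 CPM under vehicle against 37.7 and 44.6 under DCA, nearly all from Cd79b, with Pax5 at 0. ILC3 markers were at 0 CPM with vehicle and summed to 3.52 and 0.779 CPM with DCA, from Il17f and, in DCA replicate 1, Il17a, with Il22 and Il23r at 0. ILC1 and NK markers summed to at most 0.382 CPM in a library, and epithelial markers to 8.27 and 13.5 CPM under vehicle against 7.73 and 9.02 under DCA. The DCA libraries both lay below the vehicle libraries for the T and B cell sums and above them for the ILC3 sum, and the part of these cells in the levels of Ccr2 and Ccr7 was not tested.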

How the data were processed

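The deposited table is named for FPKM, but its values are whole-number counts. Per the labels and the methods, the authors made full-length cDNA, sequenced paired 150-base reads and, by the submitters' processing notes, used cutadapt 1.9, HISAT2 2.2.1 and mm10. The counting tool, annotation and strand setting are not given in the sources used here. Columns were assigned to libraries by name.

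Counts were scaled with TMM in edgeR 4.0.16 (R 4.3.3) and tested two-sided by its quasi-likelihood test with Benjamini-Hochberg adjustment over all 11184 genes whose mean CPM was 1 or more. DESeq2, named in the study's methods, was an alternative (1.42.0), as was limma 3.58.1. A standard error is that of the difference in log2(CPM + 1) between libraries. Genes of the 9 below it were tested without the filter. Simulated data with known answers were used to test the code. With 2 libraries a group, the smallest exact permutation p is 0.333.

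The 9 genes and the lists were chosen with earlier results of these data known. Genes named were the 9, the 3 most abundant of each list, list genes with an unadjusted p under 0.05, and the 2 nearest profiles of each receptor of at least 10 CPM. Other genes were named after their values were seen. Some genes that the rule names are not reported here. Lists were other chemokine receptors, ligands, S1P pathway, KLF and FOXO factors, receptor signaling, entry and adhesion, and markers of ILC2s, T cells, B cells, macrophages and monocytes, dendritic cells, ILC3s, ILC1 and NK cells, and epithelium. Of 27179 Entrez identifiers, 25275 matched RefSeq on GRCm38.p6, the assembly mm10 is made from. The 1275 rows with an Entrez identifier but no symbol (0.137% to 0.173% of counts) were kept. Alternatives were other scalings, filters and tools, a replicate block, thinning of DCA replicate 2, each library left out, and, for levels, transcript length.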

Additional observations from a re-analysis of the deposited data

How the results depend on the processing

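Ccr2 stayed lower with DCA and Ccr7 higher under all 15 alternatives run for each. The count of the 9 genes past an adjusted p of 0.05, 0 in edgeR with the filter, was 1 without a filter, 1 with DESeq2 and 1 with DESeq2 without a filter (the last chosen after seeing the data), and each time the gene was Ccr2. Over all genes the count was 0 with the filter (477 at an unadjusted p under 0.05), 36 without it, 128 with DESeq2, 247 with DESeq2 without a filter, and 0 to 20 with each library left out, the 20 without vehicle replicate 1. In the entry, retention and adhesion list 1 gene passed without a filter and 1 with DESeq2, Itga4 in both. Without a filter 17706 genes were tested, and the unadjusted edgeR p of Ccr2 was 3.43e-05, against 0.00723 with the filter. The cause of these differences between settings was not tested. A fit without a library assumes that the lone library varies like the other group.

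The Ccr4 log2 fold change turned from -0.31 to 0.12 and 0.14 with limma at offsets of 1 and 0.1 CPM and to 0.14 with the replicate block, and ranged from -1.09 to 1.39 with each library left out. That of S1pr1, 0.025, turned to -0.039 with median-of-ratios scaling, -0.038 with DESeq2, -0.042 with DESeq2 without a filter, -0.076 and -0.60 with limma, -1.45 with the replicate block and -0.015 after thinning, and ranged from -10.59 to 5.49 with each library left out. Leaving out each library gave -0.31 to 0.53 for Ccr8, -0.25 to 0.42 for Cxcr6, -2.22 to 6.64 for Ccr9 and -5.62 to 6.59 for Cxcr4, where the last 2 are model values near 0 counts that measure no fold.

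The labels do not say whether libraries that share a replicate number share anything else. The deviations of the libraries that share a number correlated at 0.0197 across genes, which does not tell this for single genes. With the replicate block, 0 of the 9 genes and 0 of all genes passed an adjusted p of 0.05 with the filter (464 genes at an unadjusted p under 0.05). The order of levels per length kept all 9 places in both treatments, with the longest transcript as the length and with total-count scaling. Total-count scaling moves all genes of a library by the same factor, so it could hardly change this order. The length of Ccr2 changed from 6760 to 5728 bases and that of Ccr7 stayed at 1978. The median of the KLF and FOXO list, -0.078, was 0.20 and 0.48 with limma, 0.70 with the replicate block, 0.11 without a filter and 0.08 with edgeR's own filter. With each library left out, the median log2 fold change ranged from -0.42 to 0.028 for the other chemokine receptors, -1.19 to -0.072 for the ligands, -0.76 to 0.30 for the S1P pathway, -0.17 to 0.18 for the KLF and FOXO factors, -0.018 to 0.029 for receptor signaling and -0.44 to 0.25 for entry, retention and adhesion. The S1P median was -0.19 at a mean of at least 5 CPM, and that of the ligands -2.02 without a filter. Over all genes, 102 to 1505 had an unadjusted p under 0.05 with each library left out, 847 without a filter and 784 with DESeq2. A median of the ligand list at a mean of at least 5 CPM was not run, since no gene was left.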

Other observations

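Some list genes outside the rule for naming had libraries that did not overlap between treatments, as did 33.4% of all genes tested. They are given as values chosen after they were seen. Grk3, a kinase that desensitizes G protein–coupled receptors, was at 7.94 and 3.28 CPM under vehicle against 0.587 and 0.175 under DCA, for a log2 difference of -3.89 (edgeR adjusted p = 0.998, unadjusted 0.0685). Pik3r6, a regulatory subunit of the PI3Kγ that works downstream of chemokine receptors, was at 0.191 and 1.03 CPM under vehicle against 4.98 and 3.48 under DCA (unadjusted p = 0.176). Rgs18 was at 0.846 and 3.66 CPM under vehicle against 5.29 and 10.3 under DCA (unadjusted p = 0.211). Klf8 had 0 and 7 counts under vehicle, against 3.46 and 4.91 CPM under DCA (unadjusted p = 0.0937), and Klf11 had 0 and 2 counts under vehicle, against 5.84 and 0.700 CPM under DCA (unadjusted p = 0.0667). Gpr15, a receptor for homing to the large intestine, was at 36.0 and 32.1 CPM under vehicle against 26.4 and 22.6 under DCA (unadjusted p = 0.277). After adjustment each p was 0.998.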
